A study of Homo sapiens with 18 samples.

Results

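The genes described here are 34 integrin and focal adhesion genes, chosen by symbol: 10 integrin alpha subunits, 6 beta subunits, 3 genes of caveolae, 4 integrin activators, 3 members of the complex around integrin-linked kinase (ILK), 3 signalling scaffolds and 5 linkers to actin. Of these, 33 were among the 18978 genes listed for H1299 and 34 among the 20335 listed for A549, and every listed member passed the filter on low counts. TNS1 was not analysed here in H1299. H1299 and A549 are established lines from human lung cancers of the non-small cell kind, kept in serum-containing medium (RPMI-1640 for H1299, DMEM for A549). The cells were transfected at 30 nM with siControl, with siYAP against YAP (gene YAP1) or with siTAZ against TAZ (gene WWTR1). These were SMARTpools, in which several siRNAs to 1 transcript are mixed. RNA was taken after 48 h, of which the last 18 h were without serum. The design has 6 groups of 3 poly(A) RNA-seq libraries, 18 in all, called here by their replicate number (siYAP 1 is replicate 1 of siYAP). The labels do not say that replicates were separate cultures, so p-values reflect only how these libraries vary, and that variation may be technical. These are bulk samples of a whole culture, so fewer cells of a kind and less RNA per cell cannot be told apart.

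Integrins are receptors made of an alpha and a beta chain that hold cells to the extracellular matrix, with the alpha chain largely setting the ligand: collagens, laminins, or fibronectin and vitronectin. Talins and kindlins bind beta tails inside the cell and switch integrins on, and vinculin, tensins and alpha-actinin then tie the cluster to actin, while focal adhesion kinase, paxillin and the scaffold encoded by BCAR1 pass signals on. YAP and TAZ are coactivators that enter the nucleus when cells spread on stiff matrix and act on DNA mainly through TEAD factors, so adhesion lies upstream of them and adhesion genes are among their reported targets.

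As a description of the members' sequence, the 250 bases before each RefSeq start (GRCh38.p14) were searched on both strands for GGAATG, the core letters of TEAD sites. Of the 26 members with a promoter in the RefSeq table, 4 (15.4%) held it, against 11.9% of 27305 promoters. The letters TGANTCA of AP-1 sites were in 1 member, BCAR1 (3.85%, against 6.6% of all promoters), and a CArG box, the site of SRF, was in 1, ITGB6 (3.85%, against 1.14%). Of the members with the TEAD core, ITGA5 passed higher than control with both siRNAs in H1299 and with siTAZ in A549. VCL passed in the main fits only in A549, lower by small changes. ITGA10 passed only with siTAZ in H1299 with the replicate number as a block. ITGB1, the shared beta chain, did not pass against control. All 4 cores lie before the RefSeq start used, but inside the span of their gene in GENCODE. Around the ITGA5 and ITGA10 cores, all 66 bases of the stretch lay in annotated exons, and only 30 are printed. Around the ITGB1 and VCL cores, 0 of 66 bases did. The 4 stretches are shown with the TEAD core in capitals. They lie at chr10:32958377-32958442 (ITGB1, minus strand), chr10:73997915-73997980 (VCL, plus), chr12:54419331-54419360 (ITGA5, minus) and chr1:145910124-145910153 (ITGA10, minus, with the core on the other strand).
ITGB1: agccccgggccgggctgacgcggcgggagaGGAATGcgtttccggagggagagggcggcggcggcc
VCL: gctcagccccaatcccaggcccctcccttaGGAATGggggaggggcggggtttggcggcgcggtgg
ITGA5: tccagggacccaGGAATGcccccccgccag
ITGA10: catcactcctccCATTCCttccaactttat
A match of 6 letters describes these windows and was not tested as a binding site. The remaining 22 promoters searched did not hold these letters in this window. Some of their genes passed against control too, CAV1, CAV2 and ITGA2 among them.

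Levels are CPM, the counts of a gene per M (mega) counts of the library, scaled within each line by the trimmed mean of M values (TMM). Libraries held 16.8 to 20.8 M counts in H1299 and 10.7 to 45 M in A549. YAP1 stood at 81.8 ± 3.37 CPM (SD, n = 3) in H1299 controls and 14.7 ± 4.29 with siYAP, and at 58.3 ± 1.32 and 17.3 ± 2.04 in A549. WWTR1 stood at 257 ± 24.7 in H1299 controls and 49.3 ± 29.1 with siTAZ, and at 177 ± 2.74 and 57.8 ± 11.2 in A549. H1299 siTAZ 2 kept 82.7 CPM of WWTR1 against 36.1 and 29.1 in siTAZ 1 and 3. In H1299 siYAP libraries WWTR1 was also below every control, at 173, 203 and 167 CPM (log2 difference -0.51 ± 0.26 (SE), adjusted p = 0.204 by edgeR's quasi-likelihood test, and 0.0398 with the replicate number as a block). WWTR1 in A549 siYAP libraries was below every control too, at 158, 162 and 153 CPM against 174, 180 and 176. YAP1 in H1299 siTAZ libraries was above every control, at 96.5, 106 and 100 CPM against 83.6, 83.8 and 77.9. In A549 siTAZ libraries YAP1 overlapped the controls, at 58.4, 58.9 and 62.7 against 59.6, 56.9 and 58.3. Of 5 epithelial markers, 4 were listed in H1299 controls, summing to 396 to 444 CPM, with CDH1 not listed. All 5 were listed in A549 controls, at 4520 to 5810. Of 6 leukocyte markers, 1 was listed in H1299 (1.68 to 3.75 CPM in controls) and 4 in A549 (summing to 9.21 to 13.8), with PTPRC and CD3E listed in neither.

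In control H1299 cells the alpha subunits with the highest level per kb of exon were the laminin receptor chains ITGA6 (156 ± 23.4 CPM per kb) and ITGA3 (148 ± 1.95), whose libraries overlapped. ITGA5, the fibronectin receptor chain, followed at 27.8 ± 2.85 CPM per kb and ITGAV, which recognises vitronectin and fibronectin, at 12.6 ± 1.42. ITGA4 (8.5 ± 1.6) and ITGA2, a collagen receptor chain (6.09 ± 1.44), overlapped each other. ITGA10 (2.88), ITGA1 (1.08), ITGA7 (0.792) and ITGA11 (0.0976 CPM per kb) were lowest and stood apart from each other in that order. In A549 controls ITGA3 led alone at 69.7 ± 3.61 CPM per kb. ITGAV (25.2 ± 1.49) and ITGA6 (24.8 ± 3.85) overlapped behind it, ahead of ITGA2 (13.6 ± 0.155) and ITGA5 (8.60 ± 1.72), and the other 5 alpha chains were under 1 CPM per kb.

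Among beta subunits ITGB1, the partner of most alpha chains, was highest in both lines, at 157 ± 11.1 CPM per kb in H1299 controls and 253 ± 10.5 in A549 controls. ITGB4, which pairs with ITGA6 in hemidesmosomes, and ITGB5, which pairs with ITGAV, came next at 40.8 ± 5.99 and 33.2 ± 5.06 in H1299, where they overlapped, and at 47.6 ± 5.36 and 77.3 ± 8.11 in A549, where they did not. ITGB3, ITGB6 and ITGB8 were under 1 CPM per kb in the controls of both lines. ITGB3 shares 51.6% and ITGB6 20.6% of its exon length with an overlapping gene on the same strand in GENCODE 29, so their few counts are uncertain.

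**Figure D1:**
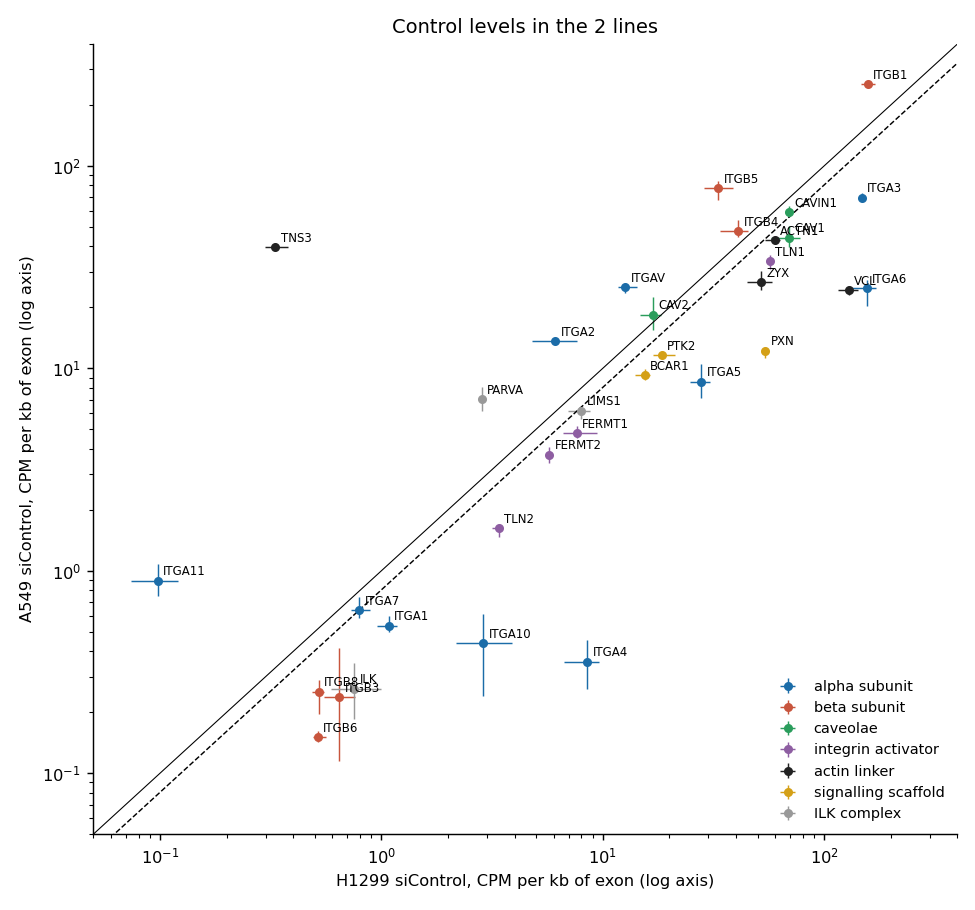
Mean level of 33 members in H1299 (x axis) and A549 (y axis) control libraries, in CPM per kb of exon on log axes, with bars from the lowest to the highest of 3 libraries and colours for roles. The solid diagonal is an equal value as scaled within each line, the dashed line an equal value after joint scaling. TNS3 and ITGA11 lie far above both lines, ITGA4, ITGA10, ITGA6 and VCL far below.

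Most of the members differed between the control lines, as did most genes. In a fit over all 18 libraries, 9 members were higher in A549 and 20 higher in H1299 of 33 tested, where 78.5% of 15816 genes passed (38.5% higher in A549 and 40% lower). TNS3, a tensin, stood at 462, 490.3 and 450.4 CPM in A549 controls and at 3.50, 4.47 and 3.76 in H1299, so the lines did not overlap (log2 difference 7.22 ± 0.12, adjusted p = 4.79e-20). The other members higher in A549 were the collagen receptor chains ITGA11 (3.49 ± 0.27) and ITGA2 (1.47 ± 0.17), PARVA, an actin-binding partner of ILK (1.62 ± 0.07), ITGB5 (1.53 ± 0.10), ITGAV (1.31 ± 0.10), ITGB1 (1.00 ± 0.09), ITGB4 (0.53 ± 0.11) and CAV2 (0.42 ± 0.09).

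Lower in A549 were ITGA4 (-4.26 ± 0.18), ITGA10 (-2.56 ± 0.28), ITGA6 (-2.35 ± 0.14), VCL, vinculin (-2.10 ± 0.10), PXN, paxillin (-1.84 ± 0.08), and ITGA5 (-1.40 ± 0.15). ITGA4 showed this in every library, at 75.6, 52.7 and 73.2 CPM in H1299 controls and 2.06, 2.79 and 3.58 in A549. The other 14 members lower in A549 differed by -1.44 to -0.30, with ITGB6 and FERMT2 at the ends. ITGA7, CAVIN1, LIMS1 and ACTN1 did not pass, although ACTN1 did with a block in both lines (-0.16, adjusted p = 0.0113). FERMT1 lost its call without A549 control 1 (-0.32) or 3 (-0.31) or H1299 control 2 (-0.15), and the other 28 calls were kept without any single library. Joint TMM scaling put A549 0.23 higher on the log2 scale, at the median of all genes, than library size alone. With library size alone, a setting chosen after seeing the data, 8 members were higher and 22 lower, no called member changed sign, and CAV2 lost its call (0.20, adjusted p = 0.0506). Line, medium and table cannot be told apart in these values.

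In H1299 cells ITGA2, ITGA5, ITGA7, ITGA11 and ITGB4 rose and both caveolins, CAV1 and CAV2, fell after either knockdown. Of 33 members tested, 6 rose and 5 fell with siYAP, against 7.89% of 15775 genes called higher and 8.75% lower (16.6% in either direction). With siTAZ 11 rose and 3 fell, against 10.9% called higher and 12.4% lower (23.3% in either direction). The median log2 change of the members was -0.02 with siYAP and 0.23 with siTAZ, and that of all genes 0.01 and 0.01. Both comparisons use the same 3 control libraries, so their values are given side by side and their likeness is no separate result. Groups did not overlap for 9 members higher and 5 lower with siYAP (17.8% and 18.3% of all genes, 36.1% in all) and for 13 higher and 4 lower with siTAZ (18.6% and 20.1%, 38.7% in all). With the replicate number as a block, 8 rose and 8 fell with siYAP (13.6% and 14.7% of all genes) and 15 rose and 4 fell with siTAZ (16.7% and 18.9%). Leaving a replicate number out of every group leaves 2 libraries in each. Without number 1, 1 of the 11 siYAP calls and 6 of the 14 siTAZ calls were kept, where 0.716% and 4.52% of all genes passed. Without number 3, 0 and 1 were kept (0.216% and 0.915% of all genes), the 1 being CAV2, and without number 2 all of them were kept (27.9% and 33.1%).

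**Figure D2:**
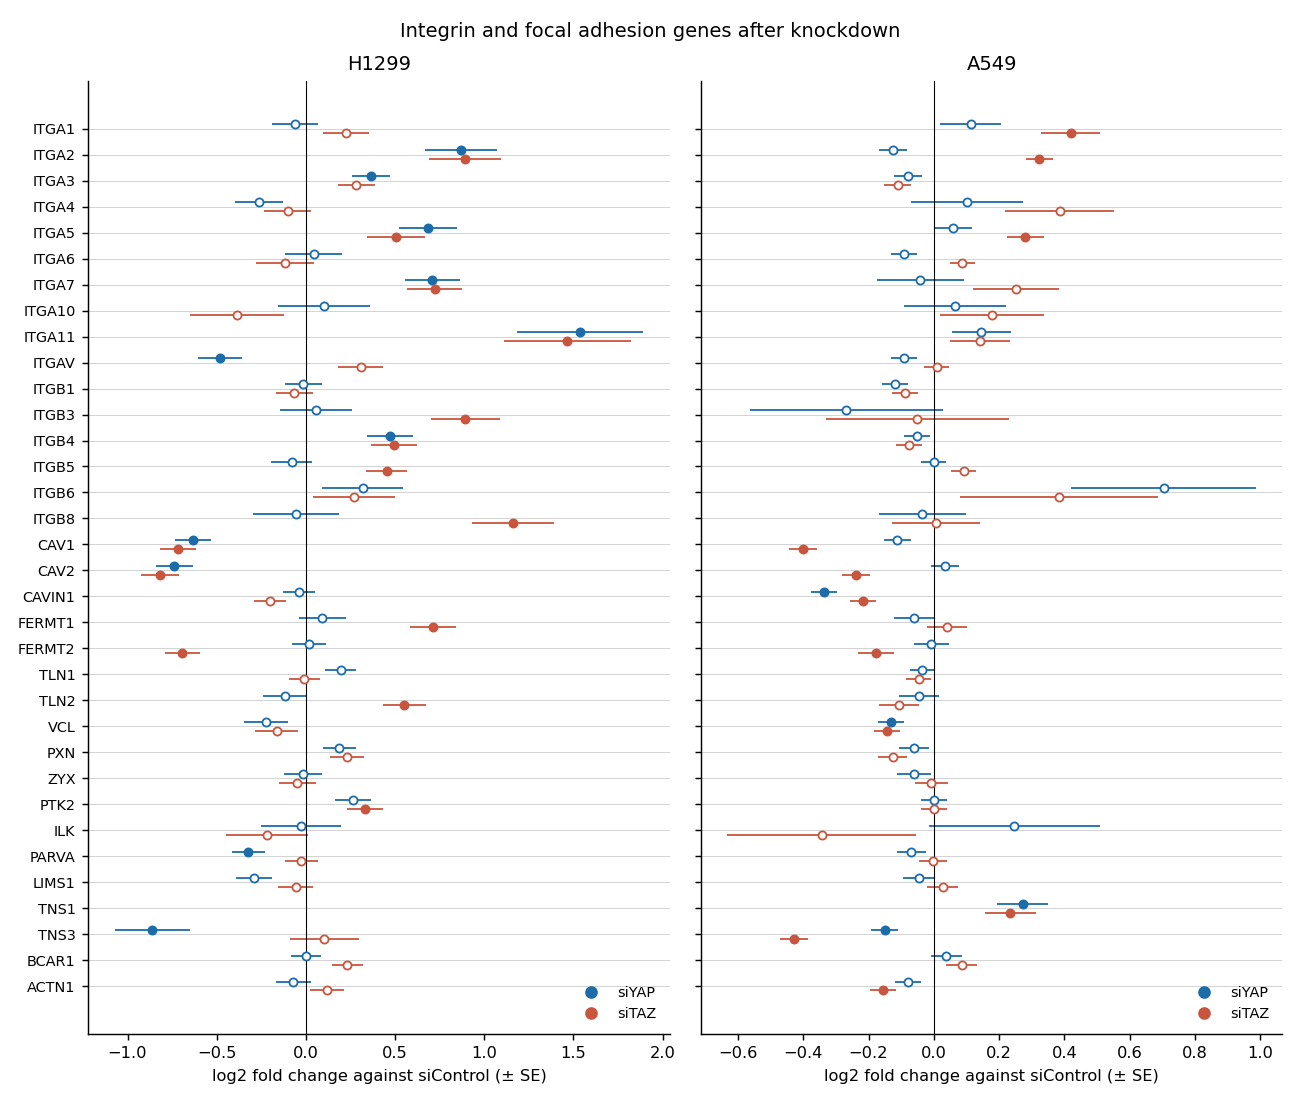
Log2 fold change (x axis) of each member (rows) against siControl in H1299 (left) and A549 (right) after siYAP (blue) and siTAZ (red), with bars of 1 SE from the fit. Filled points passed at adjusted p under 0.05 and open points did not. CAV1 and CAV2 lie left of 0 and ITGA2, ITGA5, ITGA7, ITGA11 and ITGB4 right of it for both knockdowns in H1299, and the x axes of the panels differ in range.

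Alpha chains for collagen (ITGA2, ITGA11), fibronectin (ITGA5) and laminin (ITGA7) rose with both knockdowns in H1299. ITGA2, on chromosome 5 (chr5:52989326-53094779, GRCh38), stood at 60.4, 37.9 and 46.3 CPM in controls 1, 2 and 3, at 104, 73.7 and 86.0 with siYAP and at 110.0, 61.8 and 97.0 with siTAZ. Every knockdown library was above every control, although siTAZ 2 exceeded control 1 only narrowly. The log2 change was 0.87 ± 0.20 with siYAP (adjusted p = 0.0114) and 0.89 ± 0.20 with siTAZ (adjusted p = 0.00741). ITGA5, the chain specific to fibronectin, stood at 230.1, 187 and 214 CPM in controls, at 391, 275 and 349 with siYAP and at 367, 224 and 307 with siTAZ. The siYAP libraries lay above all controls, while siTAZ 2 fell below control 1. The changes were 0.68 ± 0.16 (adjusted p = 0.0131) and 0.51 ± 0.16 (adjusted p = 0.0379). ITGA11, a collagen receptor chain typical of mesenchymal cells, was rare at 0.803, 1.31 and 1.07 CPM in controls and reached 2.96, 1.81 and 4.42 with siYAP and 3.21, 1.96 and 3.66 with siTAZ (1.54 ± 0.35 and 1.47 ± 0.36, adjusted p = 0.0111 and 0.0105). ITGA7, a laminin receptor chain, also rose from a low level, from 4.64, 5.66 and 4.83 CPM to 9.37, 8.49 and 6.89 with siYAP and 8.71, 7.98 and 8.28 with siTAZ (0.71 ± 0.15 and 0.72 ± 0.15).

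Further alpha chains passed with siYAP alone against control. ITGA3, a laminin receptor chain and with ITGA6 the most abundant of them, stood at 1431, 1463 and 1465 CPM in controls and 2024, 1667 and 1927 with siYAP, with no overlap (0.37 ± 0.10, adjusted p = 0.0305). With siTAZ it stood at 1757, 1662 and 1885, also above every control, and did not pass (0.28 ± 0.10, adjusted p = 0.0665, and 0.0159 with the block). ITGAV fell from 117, 97.7 and 96.0 CPM to 85.1, 75.5 and 62.0 with siYAP (-0.48 ± 0.12, adjusted p = 0.0192). With siTAZ it was at 146, 117 and 121 (0.31 ± 0.12, adjusted p = 0.0871, and 0.00478 with the block). ITGA4 with siYAP (-0.26, adjusted p = 0.194) and ITGA10 with siTAZ (-0.39, adjusted p = 0.306) passed with the block only (0.0350 and 0.0219). The chains ITGA1 and ITGA6 did not pass in H1299 under either fit.

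Several of these calls were lost when 1 library was left out, in some fits with little change in size. With siYAP, the ITGA2 call was lost without siYAP 1 (0.72), those of ITGA5 without siYAP 1 (0.56) or 3 (0.67), and those of ITGA11 and ITGAV without control 1 (1.37 and -0.39) or siYAP 3 (1.18 and -0.36). The ITGA3 call was lost without any 1 of the controls (0.35 to 0.37) and without siYAP 1 (0.30) or 3 (0.35). With siTAZ, the ITGA5 call was lost without any 1 control (0.43 to 0.59) and without siTAZ 1 (0.33) or 3 (0.51), and the ITGA11 call without control 1 (1.31) or siTAZ 3 (1.29). The calls of ITGA7 for both knockdowns and of ITGA2 for siTAZ were kept without any single library of the 9.

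Of 6 beta chains in H1299, 1 rose with siYAP and 4 with siTAZ, and none fell. ITGB8, which with ITGAV activates latent TGF-beta, stood at 7.97, 7.39 and 8.31 CPM in controls, at 11.6, 5.39 and 5.80 with siYAP and at 19.6, 14.6 and 18.9 with siTAZ. The siTAZ libraries were above all others, and the siYAP libraries lay on both sides of the controls. It rose with siTAZ (1.16 ± 0.23, adjusted p = 0.00383). ITGB5 stood at 209, 249 and 185 CPM in controls, at 222, 213 and 175 with siYAP and at 299, 287 and 294 with siTAZ, where it rose (0.45 ± 0.11, adjusted p = 0.0126). ITGB3, the rare gene whose exons are shared, rose with siTAZ from 2.41, 3.34 and 2.75 to 5.44, 4.32 and 6.04 CPM (0.89 ± 0.19, adjusted p = 0.00577). ITGB4 stood at 229.5, 305 and 293 CPM in controls, 409, 323 and 414 with siYAP and 382, 346 and 438 with siTAZ, and it rose in both (0.47 ± 0.13 and 0.50 ± 0.13, adjusted p = 0.0256 and 0.0154). ITGB1, at 1015, 883 and 937 CPM in controls, 1031, 886 and 888 with siYAP and 980.1, 844 and 886 with siTAZ, overlapped throughout and did not pass, nor did ITGB6. The ITGB5 call was lost without control 1 (0.44) or 3 (0.36). The ITGB4 call with siYAP was lost without control 1 (0.35) or 3 (0.51) or siYAP 1 (0.41) or 3 (0.42), and with siTAZ without control 1 (0.39) or siTAZ 3 (0.42).

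Caveolins had the smallest adjusted p among the members in both H1299 comparisons with control. Caveolins form the coat of caveolae, the membrane pits that buffer tension and bind integrin signalling proteins, and the genes CAV2 (chr7:116287380-116508541) and CAV1 (chr7:116524785-116561184, both plus strand) are neighbours 16243 bases apart. CAV1 stood at 294, 235 and 316 CPM in controls, at 180.3, 187 and 178 with siYAP and at 168, 176 and 170.4 with siTAZ. CAV2 stood at 122, 102 and 128 in controls, at 61.4, 73.8 and 75.5 with siYAP and at 62.7, 69.5 and 67.0 with siTAZ. No knockdown library reached a control for either gene. CAV1 fell by 0.63 ± 0.10 with siYAP (adjusted p = 0.00191) and by 0.72 ± 0.10 with siTAZ (adjusted p = 0.000757) on the log2 scale. CAV2 fell by 0.74 ± 0.10 (adjusted p = 0.00121) and by 0.82 ± 0.10 (adjusted p = 0.000467). CAVIN1, the coat protein that works with caveolins, did not pass and stood at 254, 277 and 262 CPM in controls, 269.6, 227 and 275 with siYAP and 229, 239.7 and 220.2 with siTAZ. The caveolin calls were kept without any single library. With a replicate number left out of every group, CAV1 was lost with siYAP without number 1 (-0.61, adjusted p = 0.0660) or 3 (-0.53, adjusted p = 0.102) and with siTAZ without number 3 (-0.62, adjusted p = 0.0605), and CAV2 with siYAP without number 3 (-0.73, adjusted p = 0.0703).

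**Figure D3:**
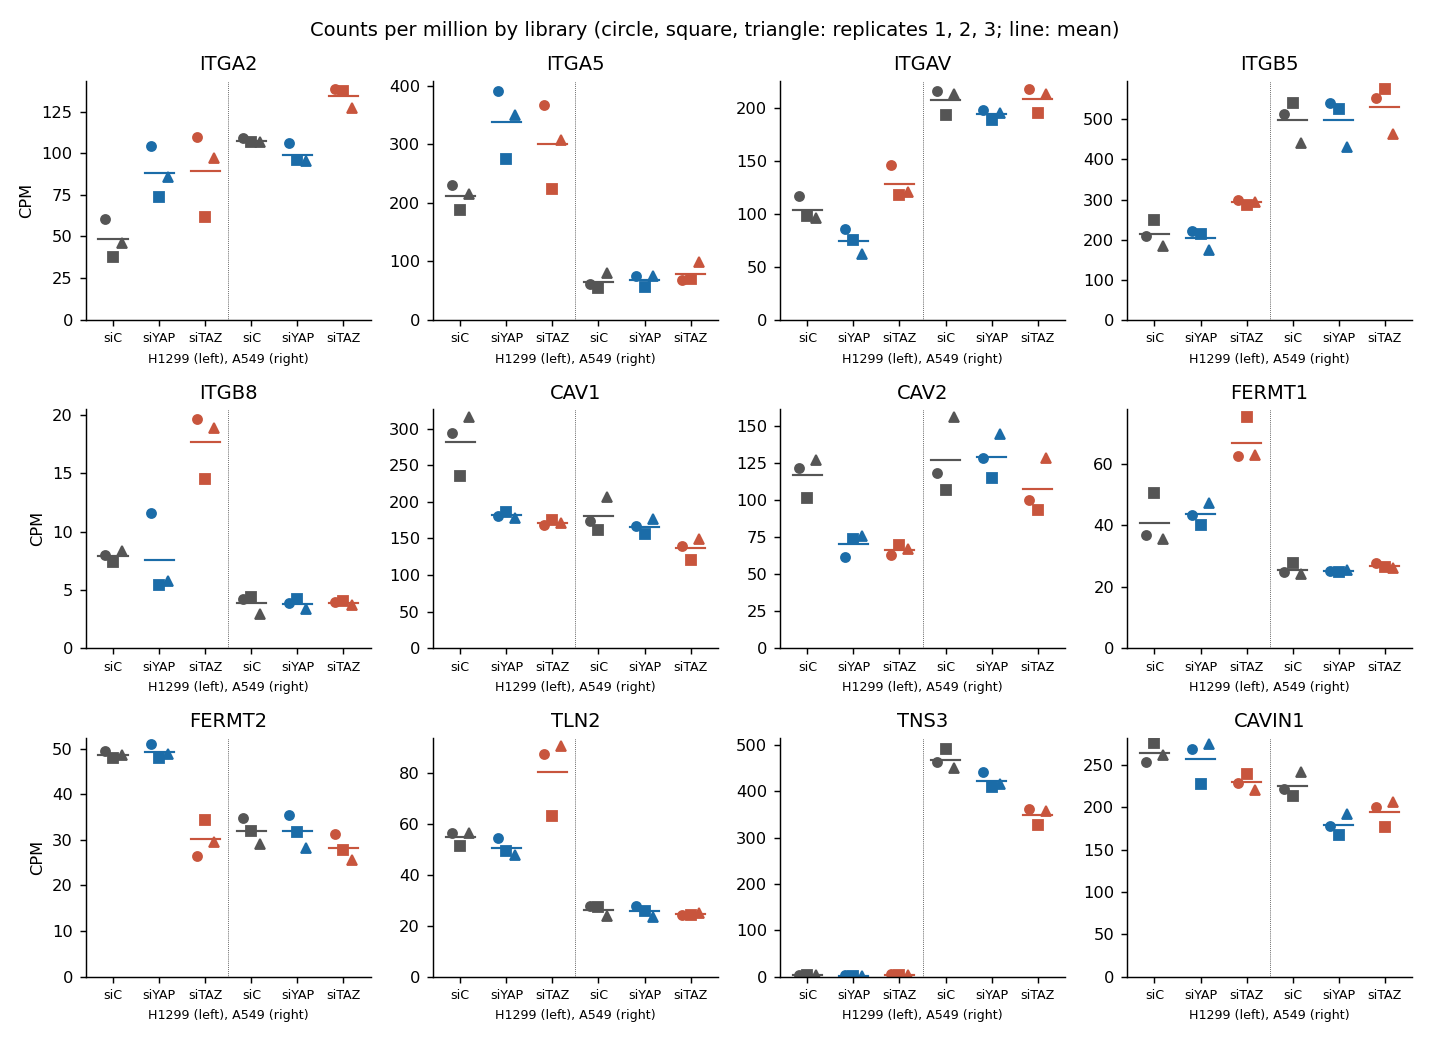
CPM of 12 members in every library, by group (siC is siControl, H1299 left of the dotted line and A549 right), with circles, squares and triangles for replicates 1, 2 and 3 and a line at the group mean. Each y axis starts at 0 and has its own range. CAV1 and CAV2 lie below the controls in all 6 H1299 knockdown libraries, and TNS3 is near 0 in H1299 on the scale set by A549.

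Of 4 integrin activators in H1299, 2 rose and 1 fell with siTAZ, with the kindlins in opposite directions, and none passed with siYAP. FERMT2, kindlin-2, the widely expressed kindlin, stood at 49.5, 48.0 and 48.6 CPM in controls and 51.1, 47.9 and 48.7 with siYAP, and at 26.4, 34.4 and 29.4 with siTAZ, below every other H1299 library (-0.69 ± 0.10, adjusted p = 0.000773). FERMT1, kindlin-1, the epithelial form, stood at 36.8, 50.5 and 35.5 in controls, 43.6, 40.2 and 47.2 with siYAP and 62.6, 75.3 and 63.1 with siTAZ, above every other (0.71 ± 0.13, adjusted p = 0.00239). TLN2, talin-2, rose with siTAZ from 56.4, 51.2 and 56.5 to 87.4, 63.1 and 90.3 CPM (0.55 ± 0.12, adjusted p = 0.00610), with siTAZ 2 nearest to the controls. TLN1, talin-1, the main talin, stood at 590.0, 572 and 558 in controls, 702, 623 and 644 with siYAP and 595, 545 and 568 with siTAZ. It passed with siYAP with the block only (0.19, adjusted p = 0.142, and 0.0427 with the block) and did not pass with siTAZ (-0.01, adjusted p = 0.943). The calls of FERMT1, FERMT2 and TLN2 were kept without any single library. SiTAZ 2, which kept the most WWTR1, was the siTAZ library nearest to the mean of the controls for every called member except FERMT1 and PTK2. Number 2 was also the lowest library among controls and with siYAP for ITGA2, ITGA5 and ITGB8, though not for every called member. The part of the remaining WWTR1 and of the replicate number in these values was not tested.

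Of the 4 actin linkers, 3 scaffolds and 3 members of the ILK complex tested in H1299, TNS3 and PARVA passed with siYAP and PTK2 with siTAZ. TNS3, a tensin that joins beta tails to actin, fell with siYAP from 3.50, 4.47 and 3.76 CPM to 2.71, 2.03 and 1.71 (-0.86 ± 0.21, adjusted p = 0.0143), below every control but from a low level. PARVA, alpha-parvin, fell with siYAP from 36.6, 35.5 and 37.2 to 27.7, 27.2 and 32.5 (-0.32 ± 0.09, adjusted p = 0.0305). PTK2, focal adhesion kinase, rose with siTAZ from 238, 293 and 233 to 291, 332 and 339, overlapping control 2 (0.33 ± 0.10, adjusted p = 0.0321). These calls were lost when certain single libraries were left out. TNS3 was lost without siYAP 3 (-0.71). PARVA was lost without control 1 (-0.32) or 3 (-0.32), where its size did not change, and without siYAP 1 (-0.30) or 2 (-0.27). PTK2 was lost without control 1 (0.29) or 3 (0.27) or siTAZ 2 (0.31) or 3 (0.31). It was also lost in a fit of the siTAZ and control libraries alone (adjusted p = 0.0538). With the block, VCL (-0.22, adjusted p = 0.0435) and LIMS1, an adaptor bound to ILK (-0.29, adjusted p = 0.00784), also passed lower and PTK2 (0.27, adjusted p = 0.0275) higher with siYAP, and PXN (0.23, adjusted p = 0.0168) and BCAR1 (0.23, adjusted p = 0.0161) higher with siTAZ. ZYX and ACTN1 did not pass in either fit. ILK, at 2.06 to 3.48 CPM in controls, did not pass either, and shares 78.5% of its exon length with overlapping genes in GENCODE 29, TAF10 among them on the opposite strand, so its level here is uncertain.

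The direct test of siYAP against siTAZ in H1299, which uses no control library in the contrast, found 1 member higher and 7 lower with siYAP of 33, against 5.6% and 6.1% of 15775 genes (11.7% in either direction). FERMT2 was higher with siYAP (0.71 ± 0.10, adjusted p = 0.000677). Lower were ITGB8 (-1.22 ± 0.23, adjusted p = 0.00436), TNS3 (-0.97 ± 0.21, adjusted p = 0.00886), ITGB3 (-0.84 ± 0.19, adjusted p = 0.0119), ITGAV (-0.79 ± 0.12, adjusted p = 0.00155), TLN2 (-0.67 ± 0.12, adjusted p = 0.00325), FERMT1 (-0.62 ± 0.13, adjusted p = 0.00765) and ITGB5 (-0.53 ± 0.11, adjusted p = 0.00929). For each of the 8 the siYAP and siTAZ libraries did not overlap. Of the beta chains listed here that pair with ITGAV, ITGB3, ITGB5 and ITGB8 passed, as ITGAV did, and ITGB1 and ITGB6 did not. For both caveolins and for ITGA2, ITGA5, ITGA7, ITGA11 and ITGB4 the difference between the knockdowns did not pass, which does not show that they act alike. With the block 3 were higher and 10 lower (11% and 10.5% of all genes, 21.5% in all), which added ITGA10 (0.52, adjusted p = 0.00772) and TLN1 (0.20, adjusted p = 0.0408) higher and PARVA (-0.30, adjusted p = 0.0120), LIMS1 (-0.23, adjusted p = 0.0272) and BCAR1 (-0.23, adjusted p = 0.0252) lower. Groups did not overlap for 3 members higher and 11 lower (15.3% and 14.3%, 29.6% in all). ITGB3 lost its call without siTAZ 3 (-0.74), ITGB5 without siYAP 3 (-0.45, adjusted p = 0.0528) and TNS3 without siYAP 3 (-0.83, adjusted p = 0.0511). Without replicate number 1 in every group 5 of the 8 calls were kept (2.94% of all genes passed), and without number 3 those of ITGAV and FERMT2 (1.21%).

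**Figure D4:**
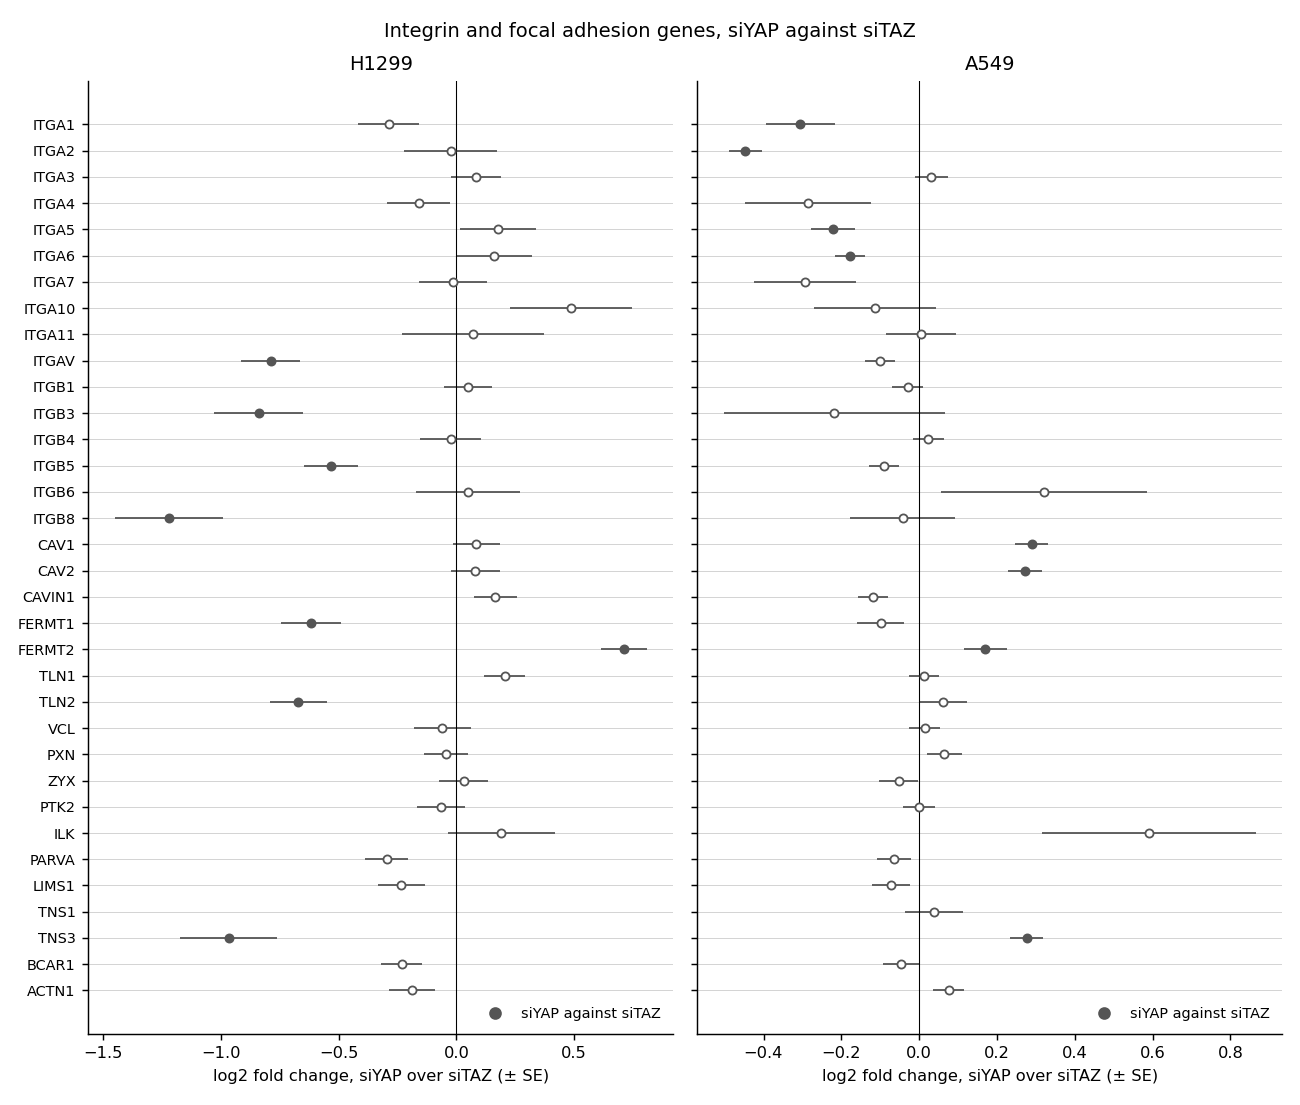
Log2 fold change of siYAP over siTAZ (x axis) for each member (rows) in H1299 (left) and A549 (right), with bars of 1 SE and filled points at adjusted p under 0.05. ITGB8, TNS3, ITGB3 and ITGAV lie farthest left among filled points in H1299 and FERMT2 is the filled point on the right. In A549 ITGA2 lies farthest left and CAV1, TNS3 and CAV2 farthest right among filled points.

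In A549 the called changes were between 0.13 and 0.43 in size on the log2 scale, with caveolar genes and TNS3 lower and ITGA2 higher after siTAZ. The fit for A549 carries the replicate number as a block, as the authors' deposited fold changes do. With siYAP 1 member rose and 3 fell of 34, against 2.5% and 3.17% of 16008 genes (5.68% in either direction). With siTAZ 4 rose and 7 fell, against 7.21% and 6.12% (13.3% in either direction). The median change of the members was -0.05 and 0.00 on the log2 scale, and that of all genes 0.00 in both. Without the block no member passed in edgeR's test in either comparison, 1 member with siYAP and 5 with siTAZ had an unadjusted p under 0.05, and 0.00625% of all genes, 1 gene, passed in each. Groups did not overlap for 0 members higher and 4 lower with siYAP (4.09% and 3.12% of all genes, 7.2% in all) and for 2 higher and 4 lower with siTAZ (5.04% and 4.24%, 9.28% in all). DESeq2's test with the block called 0 members higher with siYAP and 2 with siTAZ. With a replicate number left out of every group, 1 to 3 of the 4 siYAP calls and 5 to 8 of the 11 siTAZ calls were kept. In those fits 1.01% to 4.56% of all genes passed with siYAP and 6.03% to 9.82% with siTAZ.

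Of the 3 caveolar genes in A549, 3 fell with siTAZ and 1 with siYAP. CAV1 stood at 174, 162 and 206 CPM in controls 1, 2 and 3, at 166, 156 and 176 with siYAP and at 140.2, 121 and 149 with siTAZ. The siTAZ libraries were below all controls (-0.40 ± 0.04, adjusted p = 6.48e-09). CAV2 stood at 119, 107 and 157 in controls, 129, 115 and 145 with siYAP and 100.3, 93.5 and 129 with siTAZ, lower with siTAZ in 3 of 3 pairs of equal number although the groups overlapped (-0.24 ± 0.04, adjusted p = 0.000140). CAVIN1 passed in both comparisons and stood at 222, 213 and 242 CPM in controls, 178, 167 and 192 with siYAP and 201, 177 and 206 with siTAZ, so every knockdown library was below every control (-0.34 ± 0.04 and -0.22 ± 0.04, adjusted p = 5.1e-07 and 0.000122). These calls were kept without any single library or any replicate number.

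Of 10 alpha chains 3 rose with siTAZ in A549: ITGA1 and ITGA2 of the 4 collagen receptor chains, and ITGA5 of the chains that bind fibronectin. ITGA2 stood at 109, 107 and 107 CPM in controls, 106, 96.1 and 95.4 with siYAP and 138, 138 and 127 with siTAZ, above all others (0.32 ± 0.04, adjusted p = 3.9e-07). ITGA1, another collagen receptor chain, stood at 9.22, 9.57 and 11 in controls, 11, 10.7 and 10.1 with siYAP and 13.4, 14.4 and 11.2 with siTAZ (0.42 ± 0.09, adjusted p = 0.00107), with siTAZ 3 only just above control 3. ITGA5 stood at 61.8, 54.2 and 79.6 in controls and 68.2, 69.9 and 98.2 with siTAZ, higher in each pair of equal number (0.28 ± 0.06, adjusted p = 0.000555). The other 7 alpha chains and all 6 beta chains did not pass against control with either siRNA. The ITGA5 call was lost with DESeq2's test (0.27, adjusted p = 0.141), and ITGA1 without control 2 (0.32) or siTAZ 2 (0.31).

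Actin linkers made up most of the rest in A549. TNS3, abundant here, stood at 462, 490.3 and 450.4 CPM in controls, 442, 409.8 and 416 with siYAP and 362, 327 and 357 with siTAZ, below every control in both (-0.15 ± 0.04 and -0.43 ± 0.04, adjusted p = 0.0269 and 2.55e-09). VCL, vinculin, stood at 243, 229 and 256 in controls, 230.0, 201 and 236 with siYAP and 236, 195 and 231 with siTAZ (-0.13 ± 0.04 and -0.14 ± 0.04, adjusted p = 0.0478 and 0.0113). ACTN1, alpha-actinin, stood at 448, 437 and 480.1 in controls and 402, 377 and 451 with siTAZ (-0.16 ± 0.04, adjusted p = 0.00524). FERMT2 was lower with siTAZ at 31.4, 27.9 and 25.6 against 34.8, 32 and 29 (-0.18 ± 0.05, adjusted p = 0.0236). TNS1, a tensin, was higher at 13.4, 12.6 and 15.8 with siYAP and 13.5, 11.3 and 16.4 with siTAZ against 11.2, 9.88 and 14.2 (0.27 ± 0.08 and 0.23 ± 0.08, adjusted p = 0.0296 and 0.0404). Except for TNS3, these groups overlapped and the difference shows within pairs of equal number, in 3 of 3 pairs for each. The vinculin gene shares 11.1% of its exon length with genes on the opposite strand, and the sources used here do not give whether counting used strand.

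The siTAZ call of TNS3 was kept without any single A549 library. Its siYAP call was lost without control 2 (-0.08) or siYAP 2 (-0.13) or 3 (-0.16). VCL was lost with siYAP without control 2 (-0.09) or 3 (-0.14), siTAZ 2 (-0.13) or any 1 siYAP library (-0.15 to -0.12), with DESeq2's test (adjusted p = 0.0653) and in a fit of those groups alone (adjusted p = 0.0581), and with siTAZ without control 2 (-0.10) or siTAZ 2 (-0.11). ACTN1 was lost without control 2 (-0.12) or siTAZ 2 (-0.15). FERMT2 was lost without control 2 (-0.17) or 3 (-0.17) or any 1 siTAZ library (-0.19 to -0.17) and with DESeq2's test (adjusted p = 0.119). TNS1 was lost with siYAP without control 1 (0.26) or 2 (0.25) or siYAP 1 (0.28) or 2 (0.19), with siTAZ without any 1 of the 9 libraries (0.21 to 0.28), with DESeq2's test in both (adjusted p = 0.236 and 0.222), and with siTAZ in a fit of those groups alone (adjusted p = 0.0801).

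Set directly against each other in A549, siYAP and siTAZ differed in 8 members, 4 higher and 4 lower with siYAP, against 2.52% and 4.52% of genes (7.04% in either direction). Without the block 0 members passed in edgeR's test, against 0.0125% of all genes (0.00625% higher and 0.00625% lower), and 4 had an unadjusted p under 0.05. Groups did not overlap for 2 members higher and 3 lower (4.18% and 4.06% of all genes, 8.24% in all). Higher with siYAP were CAV1 (0.29 ± 0.04, adjusted p = 9.16e-06), TNS3 (0.28 ± 0.04, adjusted p = 2.28e-05), CAV2 (0.27 ± 0.04, adjusted p = 3.84e-05) and FERMT2 (0.17 ± 0.05, adjusted p = 0.0496). Lower were ITGA2 (-0.45 ± 0.04, adjusted p = 1.16e-09), ITGA1 (-0.31 ± 0.09, adjusted p = 0.0271), ITGA5 (-0.22 ± 0.06, adjusted p = 0.0109) and ITGA6 (-0.18 ± 0.04, adjusted p = 0.00242). ITGA6, at 172, 164 and 122 CPM with siYAP and 193, 184 and 140.4 with siTAZ, passed in no comparison with control. FERMT2 lost its call without control 1, without any 1 siYAP or siTAZ library (0.16 to 0.17) and with DESeq2's size factors, DESeq2's test or no filter on low counts, ITGA1 without siYAP 2 (-0.27) or 3 (-0.32) or siTAZ 1 (-0.29) or 2 (-0.19), and ITGA5 without siYAP 2 (-0.19) or 3 (-0.14) or siTAZ 2 (-0.17) or 3 (-0.17). DESeq2's test also lost ITGA1 (adjusted p = 0.217) and ITGA5 (adjusted p = 0.489). The calls of ITGA2, CAV1, CAV2 and TNS3 were kept without any replicate number.

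The knockdown effects were then compared between the lines in the fit over 18 libraries. YAP1 and WWTR1 fell by a larger factor in H1299 than in A549, and the part of this in the differences was not tested. The difference in YAP effect passed for 2 members higher and 1 lower in A549 of 33, against 1.31% and 0.955% of 15816 genes (2.26% in either direction). CAV1 and CAV2 fell in H1299 with siYAP and did not pass in A549, and the differences between the lines were 0.52 ± 0.12 (adjusted p = 0.0268) and 0.77 ± 0.12 (adjusted p = 0.00437). ITGA2 rose in H1299 and was at -0.12 ± 0.04 in A549 (difference -0.99 ± 0.24, adjusted p = 0.0357). The difference in TAZ effect passed for 2 higher and 5 lower, against 3.24% and 2.73% (5.96%). Lower in A549 were the effects on ITGA11 (-1.32 ± 0.37), ITGB8 (-1.14 ± 0.32), FERMT1 (-0.65 ± 0.16), TLN2 (-0.65 ± 0.15) and ITGB4 (-0.56 ± 0.16), each of which rose in H1299 and did not pass in A549. Higher were CAV2 (0.58 ± 0.12) and FERMT2 (0.52 ± 0.11), which fell in both lines and fell further in H1299. These calls depend on the block. Without it none of the 10 passed, where 0.0822% (YAP) and 0.379% (TAZ) of all genes did. With a block in both lines 13 members passed for YAP and 17 for TAZ, against 10.8% and 17.7% of all genes. Members added for YAP were ITGAV (0.39, adjusted p = 0.00366), TNS3 (0.71, 0.0165) and PARVA (0.26, 0.0479) higher in A549 and ITGA11 (-1.37, 0.00351), ITGA7 (-0.78, 0.0156), ITGA5 (-0.60, 0.00171), ITGB4 (-0.52, 0.0101), ITGA3 (-0.44, 0.00494), CAVIN1 (-0.30, 0.0422) and TLN1 (-0.23, 0.0421) lower, each with its adjusted p second. Added for TAZ, given the same way, were CAV1 (0.32, 0.0342) and ITGA6 (0.22, 0.0488) higher and ITGA2 (-0.56, 0.000613), TNS3 (-0.52, 0.0329), ITGA3 (-0.38, 0.00844), ITGB5 (-0.37, 0.0140), PXN (-0.34, 0.00623), PTK2 (-0.33, 0.0238), ITGAV (-0.29, 0.0145) and ACTN1 (-0.27, 0.0245) lower. The CAV2 differences were kept without any single library, and none of the 10 was kept without replicate number 1 or 3. In the fits without number 1 or 3, 0% of all genes passed, or 0.0126% (2 genes) for YAP without number 3. The loss there is therefore not particular to these members. With 1 library left out, CAV1 lost its call in 10 of 18 fits (0.43 to 0.62 over the 18) and ITGA2 in 12 of 18 (-1.19 to -0.85).

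**Figure D5:**
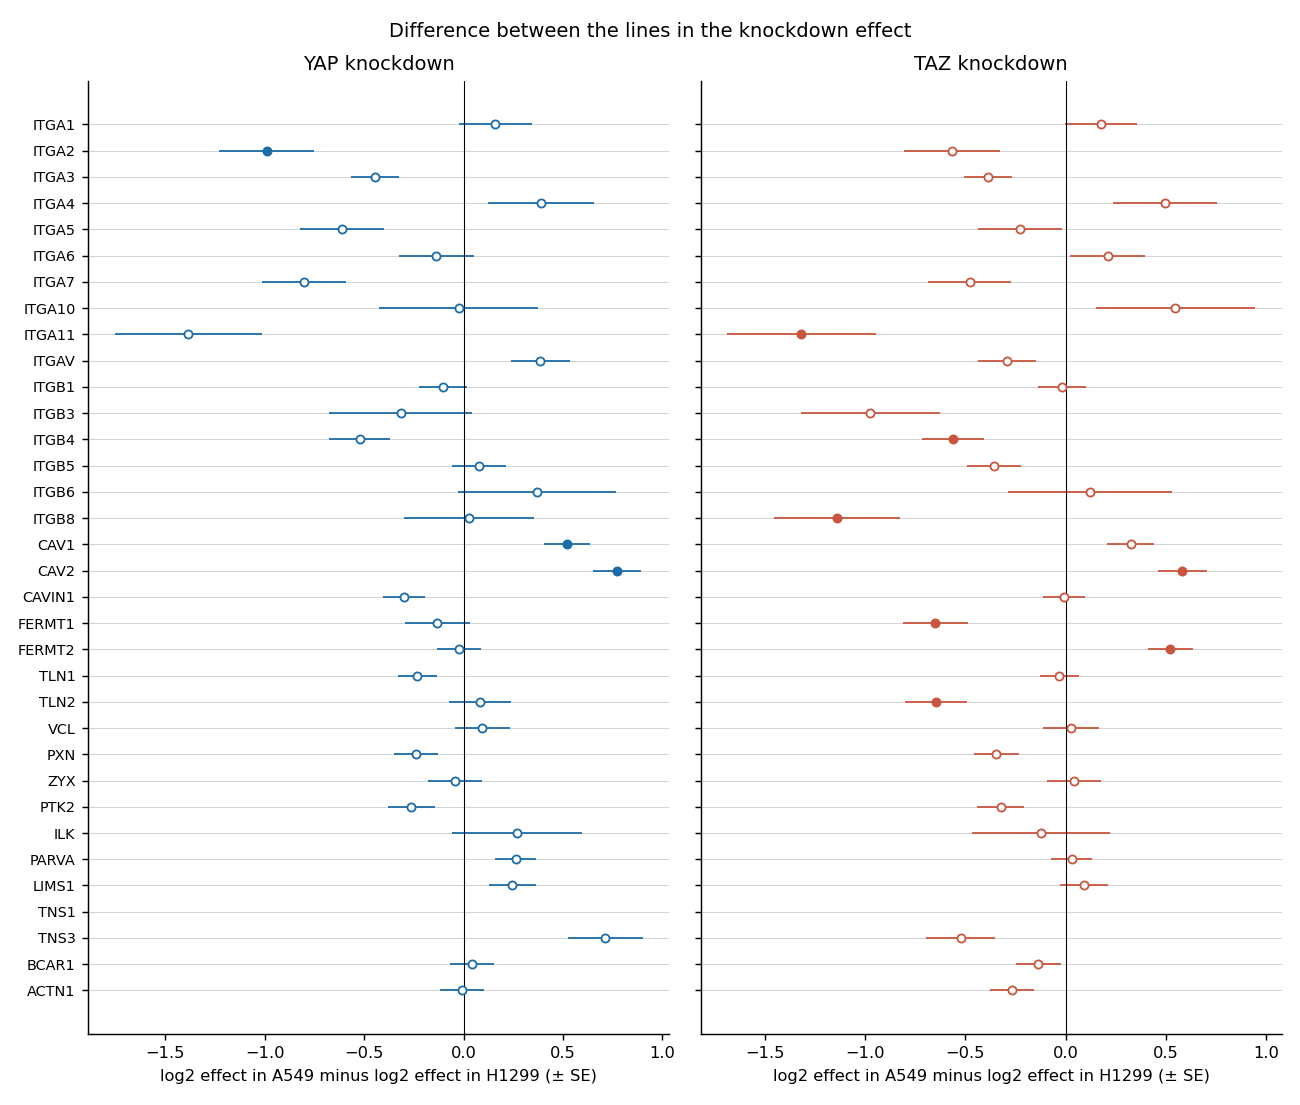
Log2 knockdown effect in A549 minus that in H1299 (x axis) for each member (rows) after YAP (left) and TAZ (right) knockdown, with bars of 1 SE and filled points at adjusted p under 0.05. CAV2 is filled and right of 0 in both panels, and ITGA11 and ITGB8 are the filled points farthest left for TAZ.

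Genes of the same pathway outside the 34 were counted list by list, where 16.6% and 23.3% of all genes passed with siYAP and siTAZ in H1299 and 5.68% and 13.3% in A549. Without the block no gene of any list passed in A549 with either siRNA, where 0.00625% of all genes did. Of matrix proteins that integrins bind, 3 rose and 2 fell of 15 tested with siYAP in H1299, and 4 rose and 1 fell with siTAZ. COL1A1 rose in both (1.14 ± 0.18 and 0.83 ± 0.18), FN1, fibronectin, with siTAZ (0.88 ± 0.19), and LAMB3, a laminin chain, fell with siYAP (-0.70 ± 0.12), while SPP1, osteopontin, fell with siTAZ (-0.69 ± 0.14). In A549 3 of 20 rose with siYAP and 8 with siTAZ, among them FN1 (0.17 ± 0.04 and 0.57 ± 0.04) and COL1A1 (0.48 ± 0.11 and 0.70 ± 0.10). The median over the list was 0.19 and 0.23 in H1299 and 0.07 and 0.17 in A549, against at most 0.01 over all genes. FN1 and COL1A1 are also in the mesenchymal and fibroblast marker lists, and of the 4 mesenchymal markers 1 rose with siTAZ in A549 (median 0.01). Their sum was 1200 to 1590 CPM in A549 controls, 1300 to 1650 with siYAP and 1560 to 2060 with siTAZ, and 2980 to 3660, 2450 to 3030 and 2750 to 3480 in H1299. The sum of epithelial markers was 4520 to 5810 CPM in A549 controls, 4240 to 5100 with siYAP and 3400 to 4580 with siTAZ, and 396 to 444, 421 to 492 and 317 to 401 in H1299. The sums do not hold for each marker. Of 5 epithelial markers tested in A549, KRT8, KRT18 and KRT19 fell with both siRNAs and CDH1 rose with siYAP (0.22 ± 0.05). Of 2 tested in H1299, 1 rose with siYAP and 1 fell with siTAZ. Each knockdown range of these sums overlapped that of its controls. The part of these marker levels in the members' values was not tested.

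The same shares of all genes apply to the remaining lists. Of other adaptors and actin linkers, 1 rose of 24 tested with siYAP in H1299 (TNS2, 0.51 ± 0.10), and 1 rose and 4 fell with siTAZ, among them ENAH, an actin polymerase partner (0.60 ± 0.11), and FLNC, a filamin (-0.52 ± 0.10). In A549 3 fell of 28 with siYAP and 7 with siTAZ. Of other caveolar genes EHD4, a membrane-shaping ATPase, fell in H1299 with both (-0.59 ± 0.09 and -0.75 ± 0.09), and the list had 1 higher and 1 lower of 4 with siYAP, 1 lower with siTAZ, and 1 and 3 lower of 6 in A549. Of the other integrin subunits ITGAX rose in H1299 with siYAP (1.95 ± 0.24) and in A549 with siYAP and siTAZ (0.45 ± 0.05 and 0.47 ± 0.05), and ITGAE fell in H1299 with both (-0.47 ± 0.13 and -0.57 ± 0.13). Of adhesion kinases, phosphatases and exchange factors 3 of 21 passed with siYAP and 2 with siTAZ in H1299 (against 16.6% and 23.3% of all genes), and 1 and 4 of 22 in A549 (against 5.68% and 13.3%). Of integrin inhibitors and trafficking genes, 2 of 12 passed with siTAZ in H1299 and 1 of 12 in A549, and of hemidesmosome and tetraspanin genes 2 of 8 with siTAZ in H1299, CD82 (0.90 ± 0.12) and TSPAN14 (0.28 ± 0.08), both higher.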

How the data were processed

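Gene counts of 18 libraries (6 groups of 3) were used as deposited, in 1 table per line. Per the submitters' processing notes the authors used cutadapt, STAR 2.4.2a, GRCh38 and DESeq2, and no source used here names the counting tool, the annotation or a strand setting. The deposited log2 fold changes of the authors served only to check their model: a DESeq2 1.42.0 refit with a replicate term came within 0.001 of 99.99% or more of them in A549, and a refit without it of 100% in H1299. A further 36 deposited per-sample columns were not used.

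Counts were tested with edgeR 4.0.16 (R 4.3.3, limma 3.58.1) by the quasi-likelihood F test, with TMM scaling and edgeR's filter on low counts. P-values were Benjamini-Hochberg adjusted over all genes of a fit, two-sided, and called under 0.05. H1299 was fitted without and A549 with the replicate number as a block, and the 18 libraries jointly with the block within A549. Deviations of same-numbered libraries from their group means correlated at 0.108 to 0.383 in H1299 and 0.384 to 0.729 in A549. Those of differently numbered libraries correlated at -0.324 to 0.16 in H1299 and -0.55 to 0.279 in A549. The numbers thus pair libraries clearly in A549. In H1299 the ranges overlapped (medians 0.221 and -0.1355), so pairing there is weaker. Every same-numbered H1299 pair was still over 0.1, the correlation over which numbers were taken to pair. The main H1299 fit leaves the block out because the deposited H1299 values name no batch term. It thus ignores that pairing, and counts with the block are given beside it. The 34 members and the other lists were chosen with earlier results of these data known. Every member called in a knockdown comparison, or called there only under the other block setting, was named. Some members that differed between the control lines are given only as a count and range. Of the other lists at most the 4 genes with the smallest adjusted p were named. Exon lengths and overlaps came from GENCODE 29 and promoters from RefSeq (GRCh38.p14), where 26 of 34 members matched. The scripts were tested on simulated data. Alternatives were DESeq2 scaling and test, other filters, the other block setting, fits of the groups compared alone and leaving out libraries. Depth limits precision to counting error and the spread of 3 libraries.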

Additional observations from a re-analysis of the deposited data

Results flagged for a closer look

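These values stand out because siRNA to the same gene gave different effects in A549 and H1299 by a test of the difference itself. Each is the log2 effect in A549 minus that in H1299 (edgeR's quasi-likelihood test, adjusted p under 0.05). After YAP knockdown they were 0.77 for CAV2, 0.52 for CAV1 and -0.99 for ITGA2. After TAZ knockdown they were 0.58 for CAV2, 0.52 for FERMT2, -0.56 for ITGB4, -0.65 for FERMT1, -0.65 for TLN2, -1.14 for ITGB8 and -1.32 for ITGA11. Without any single library of the 18, both CAV2 differences kept their call (0.68 to 0.85 for YAP and 0.52 to 0.65 for TAZ). The other TAZ differences lost it in 2 of 18 such fits for FERMT2 (0.44 to 0.62), 5 for TLN2 (-0.81 to -0.58), 8 for FERMT1 (-0.85 to -0.55), and 13 each for ITGA11 (-1.56 to -1.15), ITGB4 (-0.67 to -0.45) and ITGB8 (-1.28 to -1.06). No difference kept its call without the block in A549, or without replicate number 1 or 3 in every group. Without the block 0.0822% (YAP) and 0.379% (TAZ) of all genes passed. Without number 1 or 3 it was 0%, or 0.0126% for YAP without number 3. Line and medium cannot be told apart. The depth of knockdown also differed. With siYAP, YAP1 fell from 81.8 to 14.7 CPM in H1299 and from 58.3 to 17.3 in A549. With siTAZ, WWTR1 fell from 257 to 49.3 CPM in H1299 and from 177 to 57.8 in A549. The part of this depth in the differences was not tested.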

How the results depend on the processing

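Over all alternatives, 1775 of 2090 calls of members were kept, 315 were lost and 0 changed direction. This pool holds the comparison of control lines, where 28 of 29 calls were kept without any single library. Knockdown calls were less stable. By the same count H1299 kept 3 of 11 with siYAP, 9 of 14 with siTAZ and 5 of 8 for siYAP against siTAZ. A549 kept 1 of 4, 6 of 11 and 5 of 8. The differences between lines kept 1 of 3 for YAP and 1 of 7 for TAZ. With the replicate block in H1299, the numbers of members were 8 lower with siYAP and 3 higher for siYAP against siTAZ. Without the replicate block in A549 all 6 counts (higher and lower in its 3 comparisons) were 0, and so were all 4 counts of the differences between lines, where 11 (YAP) and 12 (TAZ) members had an unadjusted p under 0.05. With the replicate block in both lines those counts were 5 higher and 8 lower for YAP and 4 higher and 13 lower for TAZ, where 10.8% and 17.7% of all genes passed. DESeq2's test gave 0 higher with siYAP, 2 higher with siTAZ and 2 lower for siYAP against siTAZ in A549, and 5 (YAP) and 8 (TAZ) lower for the differences between lines. The YAP difference had 2 lower with DESeq2's size factors and 2 with a filter of 1 CPM in 3 libraries. The cause of these changes was not tested.

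Leaving out 1 library or 1 replicate number gave these ranges of members higher and lower. In H1299 they were 0 to 8 and 0 to 6 with siYAP, 0 to 14 and 1 to 4 with siTAZ, and 1 to 3 and 1 to 8 for siYAP against siTAZ. In A549 they were 0 to 1 and 1 to 4, 1 to 3 and 4 to 8, and 3 to 4 and 1 to 5. For the lines they were 9 to 10 and 19 to 21, for the YAP difference 0 to 3 and 0 to 8, and for the TAZ difference 0 to 3 and 0 to 11. All genes called ranged from 34 to 4430, 144 to 5267 and 190 to 2945 in H1299, from 157 to 1027, 940 to 2142 and 289 to 1276 in A549, and for the line differences from 0 to 1612 (YAP) and 0 to 2356 (TAZ). With 3 libraries a group, precision is limited by how these libraries vary.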
